A study of Myotis pilosus with 4 samples.

Results

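The brain of the hibernating bat Myotis ricketti was compared with the brain of the active bat through the reads of mature miRNAs in 2 small RNA libraries. The hibernating brain library (HB) and the active brain library (AB, labelled aroused) were each made from the whole brains of 3 adult bats, whose RNA had been pooled. They are 2 of the 4 libraries of the study, and the other 2 came from white adipose tissue (WAT) of the same states and are called HA and AA. All mature miRNAs that the study listed entered the comparison. Of them, 119 are conserved in other animals, and 77 were listed from bats alone and are called bat-specific here. The hibernating and the active bats were taken in different seasons, so that state and season cannot be told apart, and no agent or genotype distinguished them. With 1 pool per state there were no replicate libraries, no p-value was calculated, and every interval below covers counting error only.

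A miRNA is cut from a hairpin precursor, which has a 5p and a 3p arm, and usually one arm is loaded into an Argonaute protein while the other is degraded. The loaded strand finds messenger RNAs mainly through its seed, bases 2 to 8 from its 5′ end, and lowers their translation or stability. The 3′ end is less fixed than the 5′ end, since it can be trimmed or extended after the hairpin is cut, and the forms that result are called length variants or isomiRs. In hibernation, when metabolism and protein synthesis of the brain are strongly reduced, miRNAs are of interest as regulators that act after transcription.

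The sequences on which the brain comparison turned are given first, as DNA letters from 5′ to 3′ with the seed in capitals. The seed family with the largest share in the active brain was that of let-7, miRNAs known from developmental timing and differentiation. The list names its members miR-7, and they differ from each other outside the seed:
miR-7a-5p: tGAGGTAGtaagttgtattgt
miR-7b-5p: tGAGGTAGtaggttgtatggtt
miR-7d-5p: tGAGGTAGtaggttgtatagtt
miR-7e-5p: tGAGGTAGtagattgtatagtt
miR-7f-5p: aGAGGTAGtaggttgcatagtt
miR-7g-5p: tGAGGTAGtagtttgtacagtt
The listed miR-7c-5p has another seed, that of the miR-7 known from neurons and endocrine cells, and the miR-29 family, known to rise as the brain matures and to act on collagen messenger RNAs, had 2 members:
miR-7c-5p: tGGAAGACtagtgatttt
miR-29-3p: tAGCACCAtctgaaatcggtta
miR-285-3p: tAGCACCAtttgaaatcagt
Both arms of the following hairpins were counted, and their balance differed between the states:
miR-129-5p: cTTTTTGCggtctgggcttg
miR-129-3p: aAGCCCTTaccccaaaaagcat
miR-219-5p: tGATTGTCcaaacgcaattc
miR-219-3p: aGAATTGTggctggacatct
miR-222-5p: gGCTCAGTagtcagtgta
miR-222-3p: aGCTACATctggctactgggtc
Further conserved miRNAs with 100 or more reads over both libraries are given next. By every way of counting they were lower in the hibernating brain by a log2 size of 1 or more:
miR-139-3p: tGGAGACGcggccctgttggagt
miR-200b-3p: tAATACTGccgggtaatgatgg
miR-485-3p: gTCATACAcggctctcctctct
miR-486-3p: cGGGGCAGctcagtacaggatg

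HB held 12159756 clean reads and AB 10007650. The tags identical to the listed sequences took 2546410 reads in HB (20.9% of its clean reads) and 2402772 in AB (24.0%). Of the 119 conserved and 77 bat-specific miRNAs, 182 were found in HB and 175 in AB, 8 had no read in either library, and 35 more had fewer than 10 reads over both. A log2 ratio of HB to AB was calculated for the other 153, of which 99 were conserved and 54 bat-specific, after scaling with TMM, the trimmed mean of M values, over all listed miRNAs. The labelled tissue was checked with miR-124a-3p, the most abundant miRNA of neurons, which had 415697 reads in HB and 449967 in AB against 286 and 292 in the WAT libraries. A list of 12 neuron-enriched miRNAs summed to 513237 reads in HB and 541066 in AB, against 2588 in HA and 2896 in AA, so both libraries carried the markers of brain.

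At a log2 size of 1 or more, 62 of the 153 miRNAs (40.5%) stood apart between the brain libraries, 35 of them (22.9%) higher and 27 (17.6%) lower in the hibernating brain. The median of all 153 was 0.01. Another 43 lay between 0.5 and 1 in size and 48 under 0.5, and the counting interval of 44 held 0. This split depended on the scaling. With scaling by clean reads, which moved all ratios by -0.29, 26 were higher and 37 lower, and when TMM was set for each class on its own, 37 were higher and 31 lower.

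It depended as much on which tags were counted. The length variants of a miRNA were summed as all tags that start at its first base and are either a shortened form of the listed sequence or an extension of it. In these sums, 50 of 171 miRNAs (29.2%) passed the same size, 22 (12.9%) higher and 28 (16.4%) lower, so that the lower miRNAs outnumbered the higher ones. Among the conserved miRNAs the higher ones went from 13 of 99 to 8 of 111, and among the bat-specific from 22 of 54 to 14 of 60. All 4 other scalings and all 3 other tag rules were applied to the 62 miRNAs past the size of 1 by the listed sequence. Under all of them 26 kept their side of 1, 10 of them higher and 16 lower. This balance depends in part on the scalings, since clean reads lowered all ratios and TMM within each class those of bat-specific miRNAs. Under at least 1 of these settings, 4 changed sign. Among these 4, only the bat-specific aATATAACacagatggcctattt had 100 or more reads. It had 46 reads in HB against 96 in AB (log2 ratio -1.05), but 1323 against 656 with length variants (0.77). Of the 32 that had 100 or more reads over both libraries, 13 kept their side, 6 higher and 7 lower. Each of the 7 lower ones had 18 or 22 to 23 nt, and 6 of them were conserved: miR-7f-5p, miR-139-3p, miR-200b-3p, miR-222-3p, miR-485-3p and miR-486-3p.

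**Figure D1:**
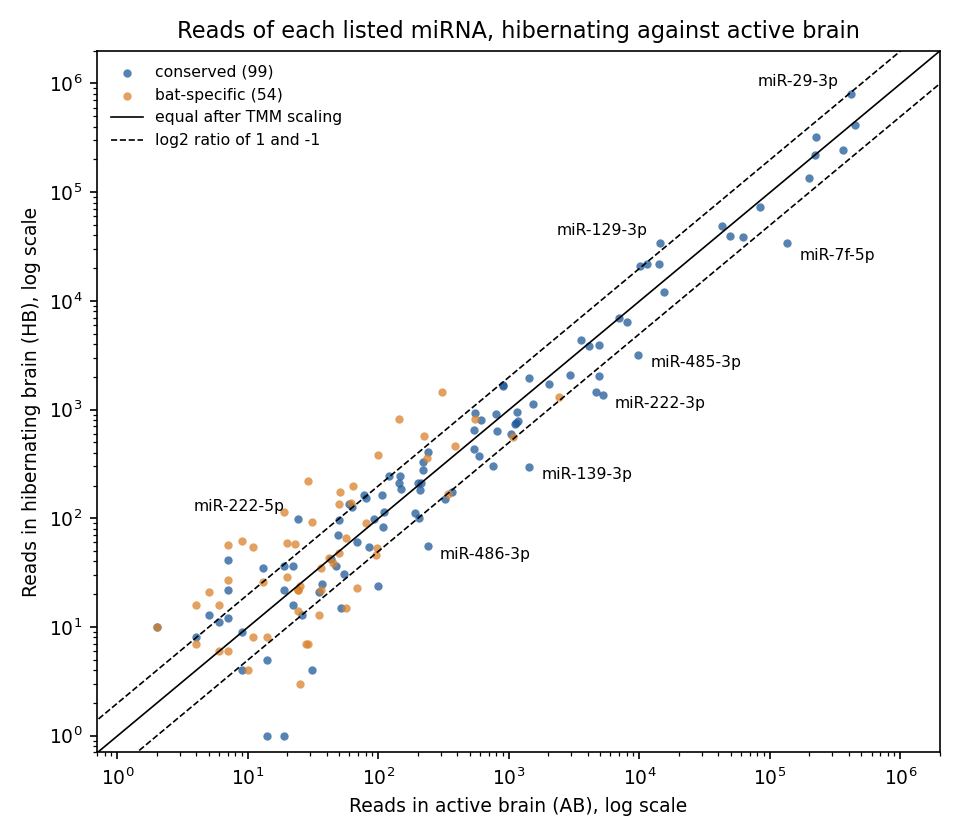
Reads of the listed sequence of each of the 153 miRNAs with 10 or more reads, in active brain (x axis) and hibernating brain (y axis), both on log scales. Blue points are conserved and orange points bat-specific miRNAs, the solid line marks equal levels after TMM scaling and the dashed lines a log2 ratio of 1 and -1. Among the abundant miRNAs, miR-7f-5p lies below the lower dashed line, miR-129-3p and miR-7c-5p lie above the upper one and miR-29-3p lies next to it, and the bat-specific miRNAs lie mostly at the lower left.

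The reads of both brains were held by few miRNAs. The 10 most abundant took 91.7% of the listed reads in HB and 91.9% in AB, and 9 of them were the same in both. The bat-specific miRNAs together took under 1% in either library, since the conserved miRNAs held 99.6% in HB and 99.7% in AB. In AB, the order began with miR-124a-3p, miR-29-3p and miR-7d-5p. In HB, miR-29-3p came first, followed by miR-124a-3p and miR-3958-3p.

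The let-7 seed had the largest share of the listed reads in the active brain and the miR-29 seed in the hibernating brain. The 6 miRNAs with the let-7 seed took 33.3% of the listed reads in AB (799986 reads, 95% exact interval 33.2 to 33.4%) and 19.5% in HB (497677 reads, 19.5 to 19.6%). The 2 miRNAs with the miR-29 seed took 17.8% in AB (427573 reads, 17.7 to 17.8%) and 32.2% in HB (821062 reads, 32.2 to 32.3%). For 1 read with the let-7 seed there were thus 0.53 reads with the miR-29 seed in AB and 1.65 in HB, a quantity that no scaling between the libraries can change. When length variants were summed and each tag was counted once, the let-7 seed held 30.8% in AB and 26.2% in HB, and the miR-29 seed 12.1% in AB and 19.3% in HB. The ratio of miR-29 to let-7 reads was then 0.39 in AB and 0.74 in HB. It remained higher in HB, but let-7 held the larger share in both brains. In WAT, the same ratio was 0.48 in AA and 0.69 in HA by the listed sequences and 0.30 and 0.35 with length variants.

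**Figure D2:**
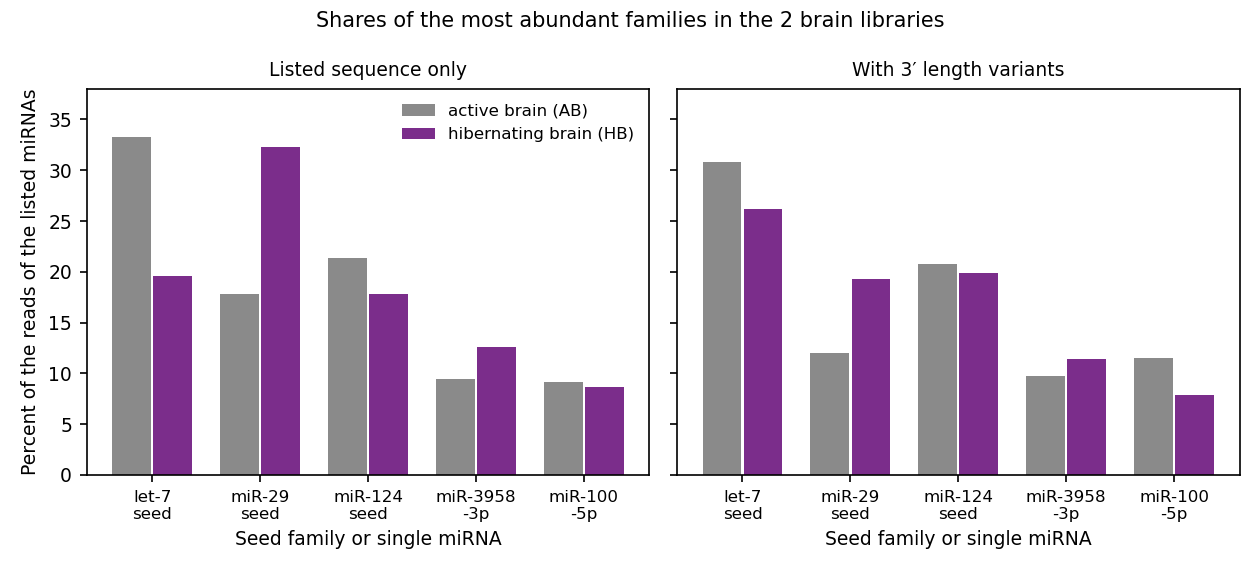
Share of the reads of all listed miRNAs (percent, y axis) taken by 3 seed families and 2 single miRNAs in active (grey) and hibernating (purple) brain, by the listed sequence only (left) and with 3′ length variants, each tag counted once (right). The gap between the bars of the let-7 seed is 33.3 to 19.5% on the left and 30.8 to 26.2% on the right, and the miR-29 seed is higher in HB in both panels.

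The members of the let-7 family did not behave alike. miR-7f-5p had 33998 reads in HB against 134582 in AB, a log2 ratio of -1.98 (95% counting interval -1.99 to -1.96). With length variants it had 68970 and 188962 reads and a ratio of -1.70, and over all alternatives its ratio lay between -2.27 and -1.53. The other abundant members were nearer to each other. miR-7d-5p had 244630 reads in HB against 364795 in AB (log2 ratio -0.57), miR-7b-5p 133676 and 200325 (-0.57), miR-7e-5p 72661 and 84358 (-0.21) and miR-7g-5p 12063 and 15388 (-0.34). With length variants the ratios were -0.17 for miR-7d-5p, -0.37 for miR-7b-5p, 0.13 for miR-7e-5p and -0.09 for miR-7g-5p, so that miR-7e-5p changed direction. The least abundant member, miR-7a-5p, had 649 reads in HB against 538 in AB, and its ratio of 0.28 became -0.36 with length variants. Only 1 of these 6 miRNAs, miR-7f-5p, was past the size of 1 under either count, on the lower side, beside 17.6% of all miRNAs lower by the listed sequence and 16.4% with length variants.

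Both members of the miR-29 family were higher in HB. miR-29-3p had 799130 reads in HB against 416098 in AB, a log2 ratio of 0.95 (0.95 to 0.96), and miR-285-3p had 21932 and 11475, a ratio of 0.94 (0.91 to 0.98). With length variants the ratios were 0.62 and 0.71, with bases 2 to 17 they were 0.71 and 0.38, and they stayed above 0 under all alternatives, with a lowest value of 0.61 for miR-29-3p and 0.38 for miR-285-3p. Neither passed the size of 1 with the main scaling. Among the other abundant miRNAs, miR-100-5p, a miRNA known to act on the mTOR kinase, had nearly equal reads by the listed sequence (221291 in HB and 220756 in AB, log2 ratio 0.01). Its ratio with length variants was -0.61. miR-3958-3p went from 0.51 to 0.16 and miR-140-3p from 0.19 to -0.05 between the same counts.

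Of the 12 neuron-enriched miRNAs, 3 were higher past the size of 1 by the listed sequence and 0 were lower, beside 22.9% and 17.6% of all 153, so that the share of higher ones was near that of all miRNAs. Their median ratio was 0.55 beside 0.01 for all 153. With length variants, 0 of the 12 passed, and the median was 0.22 beside -0.02. The 3 were miR-129-3p, miR-7c-5p and miR-218b-5p. miR-129-3p, a miRNA abundant in neurons, had 34053 reads in HB and 14360 in AB, a log2 ratio of 1.25 (1.23 to 1.28), and its value of 0.99 with length variants lay just under the size of 1. miR-7c-5p had 20988 reads in HB against 10140 in AB (1.06), and with length variants 71030 and 52081 (0.20). miR-218b-5p, the first 19 nt of miR-218a-5p, a miRNA of motor neurons, had 164 and 78 reads (1.08), and its ratio became 0.57. miR-124a-3p had a ratio of -0.11 and miR-124b-3p, which is the same sequence with 4 more bases, -0.67. The seed that both share took 21.3% of the listed reads in AB and 17.9% in HB, or 20.8% and 19.9% with length variants. miR-9-3p, from a hairpin of neural progenitors and neurons, had 2070 reads in HB and 2918 in AB (-0.49), and miR-129-5p 376 and 594 (-0.65). The remaining members, miR-124-5p, both arms of miR-153, miR-218a-5p and miR-138-3p, had ratios from 0.10 to 0.63.

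Also examined were 2 lists of miRNAs that share a place in the genome of other mammals. Those of the imprinted Dlk1-Dio3 region, which brain expresses strongly, had 9 listed members, and they summed to 14906 reads in HB and 23786 in AB. Of these 9, 1 was higher and 2 were lower past the size of 1, beside 22.9% and 17.6% of all 153, with a median of 0.00 beside 0.01 for all. The lower ones were miR-485-3p, with 3180 reads in HB and 9794 in AB (log2 ratio -1.61, counting interval -1.67 to -1.56), and miR-432-5p, with 2048 and 4927 (-1.26, -1.33 to -1.18). miR-485-3p was between -1.90 and -1.48 under all alternatives and miR-432-5p between -1.55 and -0.87. The 2 arms of miR-539 were also lower, under the size of 1, with 31 reads in HB against 54 in AB for miR-539-5p (-0.79, -1.48 to -0.13) and 25 against 37 for miR-539-3p (-0.56, with an interval that held 0). The other members were at or above 0 by the listed sequence, but miR-381-5p was -0.24 with length variants, as was the median of the list. miR-154-3p had 6977 reads in HB against 7011 in AB (0.00), miR-544-5p had 929 and 550 (0.77), and miR-381-5p and miR-381-3p had ratios of 0.18 and 0.42. The higher one, miR-432-3p, had 8 and 4 reads (1.01), and its interval of -0.89 to 3.19 held 0. miR-448 and miR-1298 lie in introns of Htr2c, the gene of a serotonin receptor. Their main arms differed in direction, with 3829 reads in HB and 4138 in AB for miR-448-3p (-0.10) and 408 and 238 for miR-1298-5p (0.79). None of the 3 members with enough reads passed the size of 1, but with length variants miR-448-5p, from 10 and 23 reads, was lower at -1.45.

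Whole brain contains vessels, blood and membranes besides neurons and glia, and in such RNA fewer cells of a type and less RNA per cell cannot be told apart. The 2 arms of miR-219, which oligodendrocytes need to mature, had 1663 reads in HB and 894 in AB for miR-219-5p (0.90) and 39847 and 49302 for miR-219-3p (-0.30). Of 4 miRNAs of blood cells, 3 had enough reads, with 1 higher and 2 lower, beside 22.9% and 17.6% of all 153. The list summed to 342 reads in HB and 624 in AB. Its most abundant gene, miR-486-5p of red cells, had 149 reads in HB against 326 in AB, whereas miR-142-5p of white cells had 136 and 59 (1.21) and was 0.67 with length variants. miR-142-3p had 2 and 1 reads, but 17 and 2 with length variants (2.84). Of 4 miRNAs of stroma and vessels, 1 was higher and 1 lower, beside 22.9% and 17.6% of all 153, and the list summed to 6425 reads in HB and 8105 in AB, mostly miR-199-3p with 6372 and 8024 reads (-0.32). The higher one, miR-145-3p, had 22 reads in HB against 7 in AB (1.66), and its ratio was 0.41 with length variants. The lower one, miR-10-5p, had 15 reads in HB against 52 in AB (-1.78). Both miRNAs of epithelium were lower past the size of 1, beside 17.6% of all 153. miR-200a-3p had 100 reads in HB against 204 in AB (-1.02, but -0.79 with length variants) and miR-200b-3p 24 and 99 (-2.04). Together they summed to 124 reads in HB and 303 in AB. The muscle miRNA miR-1-3p had 21968 reads in HB against 14019 in AB (0.66), and through it the list of 3 muscle miRNAs summed to 23683 reads in HB and 16059 in AB. The other members had ratios below 0, with 1711 reads in HB against 2031 in AB for miR-206-3p (-0.24) and 4 against 9 for miR-133-3p (-1.16, with an interval that held 0). The list thus had 0 higher and 1 lower, beside 22.9% and 17.6% of all 153, and its median was -0.24. No member of these lists had 0 reads in both brain libraries. The part of other cell types in the differences between the brains was not tested.

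Conserved miRNAs held the lowest ratios among the 95 with at least 100 reads. miR-139-3p, from an intron of the phosphodiesterase gene Pde2a, had 296 reads in HB and 1430 in AB, a log2 ratio of -2.26 (-2.45 to -2.08), and -1.75 with length variants. miR-486-3p, from a hairpin in the ankyrin gene Ank1 that is abundant in red cells and muscle, had 55 and 238 reads (-2.10, -2.55 to -1.68). miR-200b-3p, an epithelial miRNA that acts on ZEB factors, had a ratio of -2.04 (-2.74 to -1.38) from its 24 and 99 reads. miR-7f-5p followed at -1.98. All of these stayed below -1 under each scaling and tag rule.

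miR-222-3p, a miRNA of vessels and proliferating cells that acts on the cell cycle inhibitor p27, had 1357 reads in HB and 5218 in AB (-1.93, -2.02 to -1.85), and -1.57 with length variants. miR-378-3p, from an intron of the metabolic coactivator gene Ppargc1b, had 1459 and 4624 reads (-1.66) but 10815 and 16818 with length variants (-0.88), so that it did not keep the size of 1. miR-485-3p and miR-432-5p of the Dlk1-Dio3 region have been given above. miR-28-3p, from an intron of the gene Lpp, had 304 and 753 reads (-1.30), and miR-486-5p had a ratio of -1.12, which was -1.91 with length variants. Both were just under the size of 1 under at least 1 setting, at -0.97 for miR-28-3p and -0.99 for miR-486-5p.

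Among the same 95, the 10 highest ratios were, with the exception of miR-222-5p, those of bat-specific miRNAs, and all 10 had 18 to 20 nt. They are shown with the seed in capitals, in falling order of their ratio:
bat-specific, 3p arm: aGGAGTGTgtaacaactc
bat-specific, 5p arm: gGAATCCGactgtttaat
bat-specific, 3p arm: tGACTATCtagaggaagta
bat-specific, 3p arm: aGAGGATGcattctgagtgg
bat-specific, 3p arm: cCTCGACAcaagggtttgt
bat-specific, 3p arm: tGACTATCtagaggaagt
bat-specific, 3p arm: gCTACTCAggggacattt
bat-specific, 5p arm: tACCGATTggatggttta
bat-specific, 3p arm: aAAGTCAGccctcgacaca

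The first, aGGAGTGTgtaacaactc, had 221 reads in HB and 29 in AB, a log2 ratio of 2.94 (2.38 to 3.55), and 473 and 85 with length variants (2.23). The second, gGAATCCGactgtttaat, had 114 and 19 reads (2.59, 1.89 to 3.38), and 1.44 with length variants, but 0.97 with bases 2 to 17. tGACTATCtagaggaagta had 823 and 144 reads (2.52, 2.27 to 2.79) and kept 1.95 with length variants. The sixth sequence, tGACTATCtagaggaagt, is the third without its last base, so their length variants are almost the same tags and they do not count as 2 observations. A further bat-specific miRNA, gAACTTGActatctagagga, shares 15 bases with them and was also past the size of 1. Over the whole list, 46 of the listed miRNAs, 35 of them bat-specific, fell into 17 groups that share at least 15 bases, and the 62 miRNAs past the size of 1 came from 56 separate sequences.

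Of the rest, aGAGGATGcattctgagtgg had the highest counts, 1439 reads in HB and 307 in AB (2.24, 2.06 to 2.42), but it dropped below the size of 1 under 1 tag rule, to 0.87. cCTCGACAcaagggtttgt had 384 and 100 reads (1.95), gCTACTCAggggacattt 197 and 64 (1.63), and both kept the size of 1 under all settings. tACCGATTggatggttta had 92 and 31 reads (1.58) and 0.52 with length variants. It is listed as the 5p arm of the hairpin whose listed 3p arm is tGACTATCtagaggaagt, so 1 listed arm kept its ratio and the other did not. aAAGTCAGccctcgacaca had 135 and 50 reads (1.44) and was 0.89 at its lowest. Its last bases are also the first bases of cCTCGACAcaagggtttgt, so these sequences overlap. The conserved miR-222-5p had 98 and 24 reads (2.04, 1.38 to 2.75), and 261 and 73 with length variants (1.59). In the paper's qPCR, miR-222-5p was also higher in the hibernating brain and marked significant, but under the size of 1.

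As background from general knowledge, the letters of tGACTATCtagaggaagta also occur in the conserved 3′ part of 18S ribosomal RNA, and those of aGGAGTGTgtaacaactc and gGAATCCGactgtttaat in 28S ribosomal RNA. These are examples only, and the other bat-specific sequences above may match ribosomal RNA as well. By the paper, ribosomal RNA held a larger share of the genome-matched reads in HB than in AB. No ribosomal sequence was used here, so the origin of these and of the other bat-specific tags was not tested. A hairpin origin and a ribosomal origin cannot be told apart from the tags.

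The 2 arms of 1 hairpin are cut from the same precursor, and their ratio within a library is free of the scaling between libraries. Arms were paired as the study lists them. Of 59 pairs of listed arms, 22 had 10 or more reads in each arm and were found in both libraries. In 5 of the 22, miR-129 among them, an arm is listed for more than 1 hairpin, so its reads may stem from several precursors. In 11 of the 22 the log2 ratio of 5p to 3p reads differed by 1 or more between HB and AB. In 5 of the 11 the difference kept its sign and a size of 1 or more under each tag rule, and 4 of these had 100 or more reads in each arm: miR-129, miR-219, miR-222 and miR-29.

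miR-222 had the largest of these differences. Its 3p arm was the main arm in both brains, with 5218 reads against 24 of the 5p arm in AB and 1357 against 98 in HB, so that there were 217.4 reads of the 3p arm for each read of the 5p arm in AB and 13.8 in HB. The balance differed by 3.97 (3.31 to 4.69, exact conditional interval) on the log2 scale, and by 3.16 with length variants. The arms moved in opposite directions. The rarer arm was higher and the main arm lower in the hibernating brain, and both passed the size of 1.

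In miR-129 the main arm gained instead. miR-129-3p had 14360 reads in AB against 594 of miR-129-5p, a ratio of 24.2, and 34053 against 376 in HB, a ratio of 90.6. The difference in balance was -1.91 (-2.10 to -1.71), and -1.96 with length variants. In miR-219 the rarer 5p arm gained: 55.1 reads of the 3p arm for each of the 5p arm were found in AB and 24.0 in HB, a difference of 1.20 (1.08 to 1.32) that was 1.23 with length variants. In miR-29 the 5p arm had 108 reads in AB and 83 in HB beside the 416098 and 799130 of miR-29-3p, a difference of -1.32 (-1.75 to -0.90), and -1.22 with length variants. miR-432 had the fifth difference (-2.27), but its 3p arm had only 4 and 8 reads. Of the other 6 hairpins past 1, all but miR-7c had fewer than 100 reads in an arm. They were miR-7d (-1.45), miR-7f (1.82) and miR-876 (-1.40), whose intervals held 0, and a pair of bat-specific hairpins. The arms gATGCTCTtagctgagtg and tGGATACCgcagctaggaat differed by -1.14, with an interval that held 0, and cAGGGGATgtccgactgct and aAGCCGGCagtcagacatcc by -2.22 (-4.36 to -0.15).

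For other hairpins the balance depended on the tags counted. That of miR-7c differed by 1.04 by the listed sequences and by 0.10 with length variants, and of the variants of its 5p arm, listed with 18 nt, 80.5% in AB and 70.5% in HB were longer. miR-381 (-0.24), miR-1298 (-0.18) and miR-153 (0.52) differed by less than 1, and the intervals of miR-1298 and miR-153 held 0. miR-486 differed by 0.98 (0.46 to 1.52) by the listed sequences but by -0.20 with length variants. Of the 22 hairpins, 6 changed the sign of their difference under at least 1 tag rule. The main arm was the same in both libraries for each conserved hairpin among the 22 by the listed sequences and with length variants. With bases 2 to 17 that of miR-876 differed (126 reads of 5p and 148 of 3p in HB, 53 and 46 in AB). Among the bat-specific hairpins, that of cAGGGGATgtccgactgct and aAGCCGGCagtcagacatcc differed by the listed sequences only (8 and 16 in HB, 14 and 6 in AB). That of tACCGATTggatggttta and tGACTATCtagaggaagt differed with bases 2 to 17 only (1469 and 2408 in HB, 638 and 581 in AB).

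**Figure D3:**
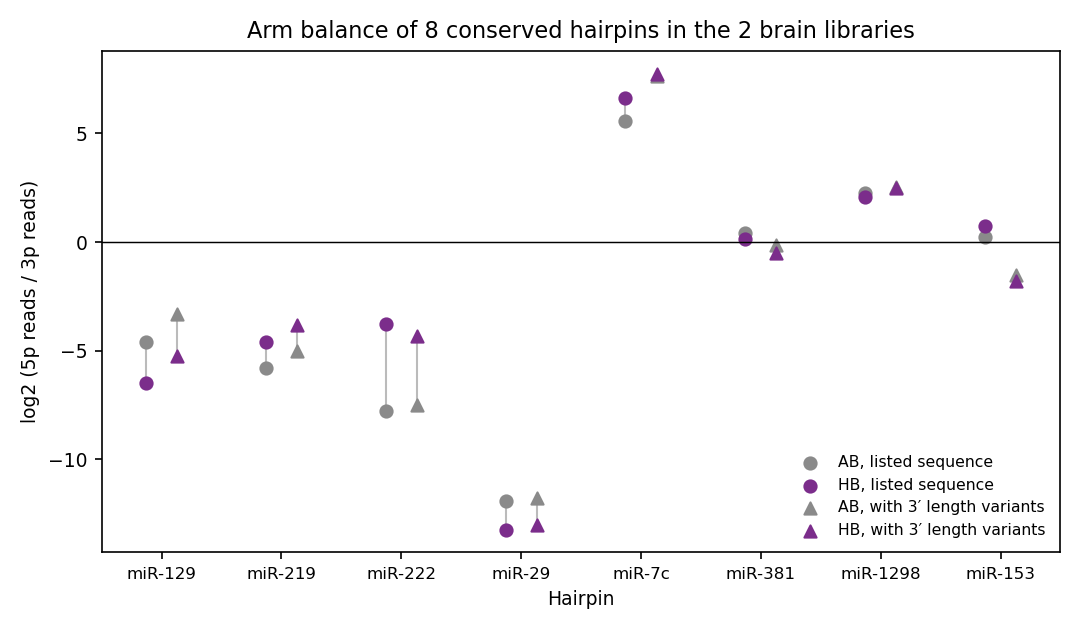
log2 ratio of 5p to 3p reads (y axis) of 8 conserved hairpins in active (grey) and hibernating (purple) brain, by the listed sequences (circles) and with 3′ length variants (triangles). Grey lines join the 2 libraries. The libraries stand apart by 1 or more for miR-129, miR-219, miR-222 and miR-29 under both counts, and for miR-7c under the listed sequences only.

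The ratio of HB to AB followed the length of the listed sequence. Its median was 1.05 for the 18 miRNAs of 18 nt, 0.99 for the 16 of 19 nt, 0.46 for the 24 of 20 nt, 0.19 for the 37 of 21 nt, -0.56 for the 52 of 22 nt and -0.89 for the 6 of 23 nt. Of the miRNAs of 18 and 19 nt, 10 of 18 and 8 of 16 were higher past the size of 1, against 2 of 52 at 22 nt, where 14 were lower. The order held within both classes between the short and the 22 nt sequences. Conserved miRNAs of 19 nt had a median of 0.72 and those of 22 nt of -0.57, and bat-specific miRNAs of 19 nt had 1.44 and those of 22 nt -0.45. With length variants the medians drew together, to 0.20 at 18 nt, 0.38 at 19 nt, 0.08 at 20 nt, -0.12 at 21 nt, -0.22 at 22 nt and 0.01 at 23 nt. The gap between the median of 18 to 19 nt and that of 22 nt went from 1.59 to 0.48. Scaling by clean reads does not change this gap. The study chose the listed lengths from the reads of these same libraries, so length and reads are not independent.

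**Figure D4:**
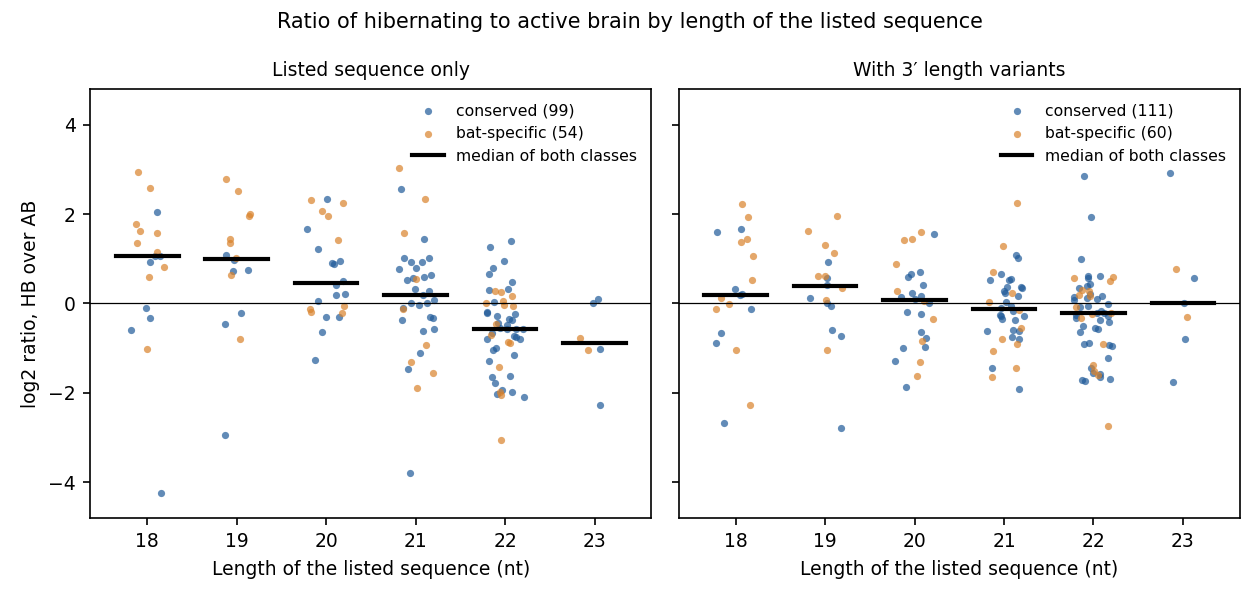
log2 ratio of HB to AB (y axis) of each miRNA with 10 or more reads, by the length of its listed sequence in nt (x axis, points spread sideways at random), for the listed sequence only (left) and with 3′ length variants (right). Black bars are medians of both classes. The medians fall from 1.05 at 18 nt to -0.89 at 23 nt on the left and lie between -0.22 and 0.38 on the right.

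Single miRNAs also differed in their 3′ ends. For 107 miRNAs with 100 or more reads of length variants in each brain library, the mean length of the variants was shorter in HB for 83 and longer for 24, with a median difference of -0.13 nt. The share of the listed sequence among its variants was lower in HB for 34 of the 37 miRNAs listed with 22 nt and 6 of the 6 with 23 nt. It was higher in HB for 10 of the 12 listed with 18 nt and 10 of the 10 with 19 nt. Among the 37 listed with 22 nt, tags shorter than the listed sequence took a larger share in HB for 33, and longer tags did so for 23. Tags shorter than 18 nt are not in the files, so shorter forms could not be counted.

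miR-7f-5p had the largest drop of this share, from 71.2% in AB (71.0 to 71.4%) to 49.3% in HB (48.9 to 49.7%), while tags shorter than the listed 22 nt went from 18.5 to 36.8% of its variants and longer tags from 10.2 to 13.9%. In miR-7d-5p the listed sequence went from 52.2% in AB to 33.2% in HB, the shorter tags from 38.1 to 52.4% and the longer tags from 9.73 to 14.4%. The other drops among the 5 largest were those of the bat-specific gCGTTGGTggtatagtggtgag (31.6 to 12.8%), miR-873-3p (45.2 to 27.9%, with intervals that overlap) and miR-7c-3p (81.8 to 64.9%).

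The largest gains were seen where the listed sequence is short or where longer variants prevailed in AB. The listed miR-503-5p, of 19 nt, held 43.6% of its variants in AB and 60.9% in HB. The other 4 of the 5 largest gains were bat-specific, with gains of 14.4 to 20.7 percentage points, among them aGAGGATGcattctgagtgg (37.5 to 54.7%) and tACCGATTggatggttta (21.1 to 36.9%). miR-7c-5p gained likewise, from 19.5 to 29.5% for its listed 18 nt. Not every miRNA was shorter in HB. In miR-29-3p the listed 22 nt held 73.5% of the variants in AB and 77.8% in HB.

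**Figure D5:**
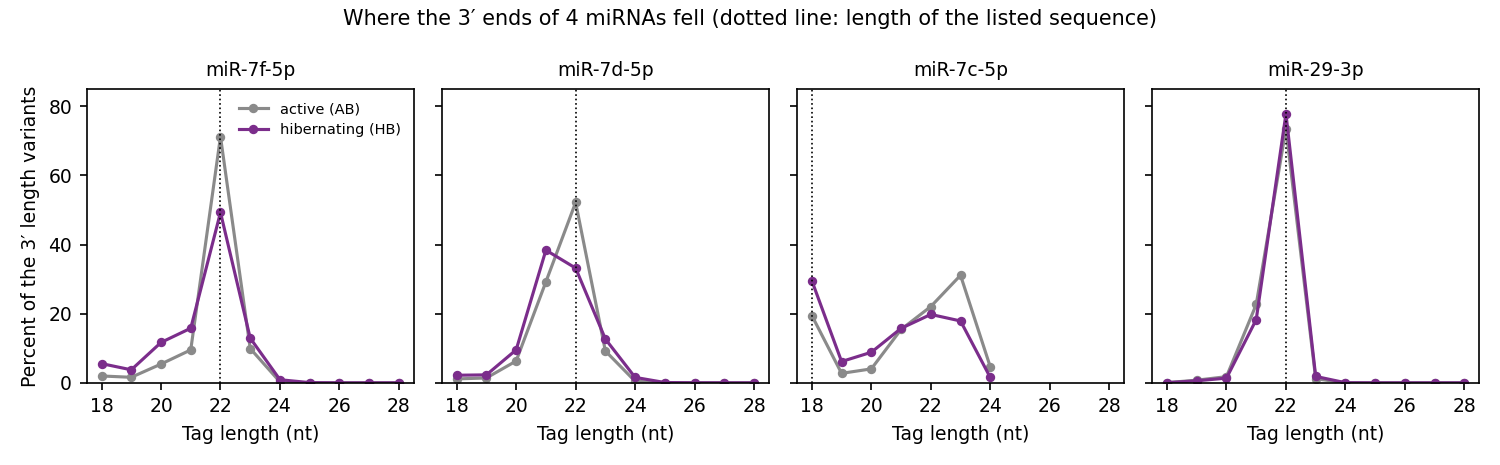
Percent of the 3′ length variants (y axis) by tag length in nt (x axis) for 4 miRNAs in active (grey) and hibernating (purple) brain; the dotted line is the length of the listed sequence. In miR-7f-5p and miR-7d-5p the peak at 22 nt is lower in HB (49.3 and 33.2%) than in AB (71.2 and 52.2%), and in miR-29-3p it is slightly higher.

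All clean reads of the 2 brain libraries, whether of miRNAs or not, also differed in length. Tags of 22 nt held 24.7% of the clean reads in HB and 30.8% in AB, whereas tags of 18 nt held 10.6 and 9.05%, of 19 nt 14.6 and 11.1%, and of 20 nt 15.6 and 12.4%. Tags of 21, 23 and 24 nt took a smaller share in HB as well (21.9 and 23.1%, 8.34 and 9.57%, and 2.55 and 2.91%). The rarer tags of 25 to 28 nt took a larger one, at 0.805 and 0.556% for 25 nt and 0.495 and 0.270% for 26 nt, so that the clean reads of HB were not shorter throughout. With 1 library per state, the state of the bats, their season and the preparation of each library cannot be told apart.

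The WAT libraries were set beside the brain. By the paper they came from the same bats as the brain libraries, so the tissues share animals and seasons. Of the 35 miRNAs higher in HB, 30 had a ratio in WAT, and 14 of them were higher, 2 lower and 14 under the size of 1 in HA against AA. Of the 27 lower in HB, 26 had a ratio in WAT, and 3 were higher and 13 lower there. Over all 153 miRNAs with a ratio in brain, 130 had one in WAT, with 24 higher and 40 lower. That split became 32 and 28 with TMM within each class, so its direction in WAT followed the scaling. The WAT counts of the miRNAs higher or lower in HB are given with TMM over all listed miRNAs only, and the scaling can shift them too. miR-222-5p was higher in both tissues, at 2.04 in brain and 2.26 in WAT, and miR-485-3p and miR-432-5p were lower in both, at -1.28 and -2.10 in WAT, where miR-485-3p was -0.51 with TMM within each class. miR-7f-5p, at -1.98 in brain, had -0.39 in WAT, which became 0.39 with TMM within each class. The difference between the tissues was not tested.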

How the data were processed

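Small RNA of pooled whole brain or WAT from 3 bats per state was sequenced by the authors on the Solexa platform as 4 libraries. After adapters and reads of low quality had been taken out, each distinct clean tag was deposited by the authors with its raw count and no normalization. Their mapping to the genome of a related bat, their search of known miRNAs and their hairpin criteria came after this step. These steps did not change the count of a tag, but they decided which sequences were listed. The list was drawn from the same 4 libraries. By the paper, the most represented of several sequenced lengths was kept. The listed lengths and the bat-specific members were thus chosen from the reads compared here. The shortest tags had 18 nt and the longest 30 nt.

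The 196 mature sequences were read from a supplementary list of the study, and no value of that list was used. A miRNA was counted by the identical tag. As alternatives, its nested length variants, all tags that start with its first 18 nt, or all tags that contain its bases 2 to 17 were summed. The ratio of HB to AB was scaled with TMM (edgeR 4.0.16, R 4.3.3). The other scalings were clean reads, the median of ratios (DESeq2 1.42.0), the reads of all listed miRNAs and TMM within each class. With 1 library per state no test was run. Ratios required 10 reads over both libraries, and a count of 0 was set to a floor of 3 reads. Intervals are exact Clopper-Pearson intervals at 95%, exact conditional intervals for arm balance, and cover counting error only, since PCR copies are not independent molecules. Intervals were computed with SciPy 1.17.1 in Python 3.11.15. The calculation of ratios, intervals and calls was checked on simulated counts with counting error only and equal library sizes. That check did not cover TMM, length variants or spread between animals.

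The comparison, the members and the lists were chosen with earlier results of these data known. Named were the 10 most abundant miRNAs of either brain, the 10 highest and the 10 lowest ratios among those with at least 100 reads, the lists, hairpins whose arm balance differed by more than 1 and the 5 largest changes of the listed share each way. Named outside this rule, after their values were seen, were the hairpins miR-381, miR-1298, miR-153, miR-486 and miR-100, the sequences gAACTTGActatctagagga and aATATAACacagatggcctattt, miR-6119-3p and the miR-92 seed. The combined count of calls kept under every scaling and tag rule, and the other scalings and tag rules of WAT, were also chosen after seeing the data. Bat-specific miRNAs are given by their sequence.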

Additional observations from a re-analysis of the deposited data

Results flagged for a closer look

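Of the 20 miRNAs with the highest and lowest ratios in brain, 4 had a ratio of the opposite sign in WAT with both counting intervals off 0. The difference between the tissues was not tested. miR-200b-3p, an epithelial miRNA, was lower in HB than in AB (-2.04) and higher in HA than in AA (3.60, from 269 and 28 reads). miR-222-3p had -1.93 in brain and 0.65 in WAT, from 3277 reads in HA and 2639 in AA. miR-486-5p of red cells had -1.12 in brain and 0.36 in WAT, with 1795 and 1763 reads. The bat-specific tGACTATCtagaggaagt had 1.77 in brain and -0.61 in WAT, with 41 and 79 reads. The first 3 kept their sign in WAT under each scaling and tag rule, although miR-486-5p was only 0.01 with clean reads and 0.02 with bases 2 to 17. tGACTATCtagaggaagt did not. Its length variants summed to 513 reads in HA against 559 in AA, with a ratio of 0.15, and with bases 2 to 17 its ratio was 0.92, so that its opposite sign in WAT was seen for the listed sequence only.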

How the results depend on the processing

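No paired analysis was possible because each state had 1 brain library, and for the same reason no replicate could be left out. The number of miRNAs past the size of 1, which was 62 (35 higher and 27 lower), was 32 (18 and 14) with a minimum of 100 reads, 29 (15 and 14) with the whole interval beyond 1, and 21 (13 and 8) at a log2 size of 2. The higher ones were 22 with nested length variants and 21 with tags that share the first 18 nt or bases 2 to 17. Over the lists together, 15 members passed the size of 1, beside 62 of all 153 miRNAs (40.5%). With the first 18 nt 8 members passed, beside 49 of all 176, and with bases 2 to 17 again 8, beside 44 of all 183. With the whole interval beyond 1 there were 7 members, and at a size of 2 there were 2. The median ratio of all miRNAs was -0.28 with scaling by clean reads. The log2 ratio of the share of the let-7 seed, -0.77, was -0.23 with nested variants, -0.21 with the first 18 nt, -0.23 with bases 2 to 17 and -0.97 over clean reads. That of the miR-29 seed, 0.86, was 0.68, 0.67, 0.62 and 0.66 in the same order. Hairpins whose arm balance differed by 1 or more were 11, but 5 with bases 2 to 17 and 5 with 100 reads per arm. The gap between 18 to 19 nt and 22 nt was 0.48 with nested variants and 0.35 with bases 2 to 17. Signs reversed for the arm balance of miR-7c (-0.14 with bases 2 to 17), for that of miR-486 (0.98, but -0.20, -0.27 and -0.28 under the 3 other tag rules) and for 4 hairpins whose interval held 0, miR-7f (-0.26, -0.61 and -0.18), miR-153, miR-100 and miR-1298. Of the 62 miRNAs past the size of 1, 4 reversed: aATATAACacagatggcctattt (0.77, 0.71 and 0.78 under the 3 tag rules), miR-6119-3p (0.18 with bases 2 to 17) and 2 overlapping bat-specific arms of 16 and 4 and of 16 and 6 reads (both -0.18 with bases 2 to 17). HB thinned to the reads of AB left the ratios of all 73 named miRNAs inside their intervals. The cause of these changes was not tested. At this depth, the intervals of 44 of 153 miRNAs held 0.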

Other observations

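Of the 161 seeds among the listed miRNAs, 21 were shared by 2 or more members. The seed of miR-92, which belongs to a cluster known from cell proliferation, was carried by miR-92a-3p, miR-92b-3p and miR-363-3p. With nested length variants these took 0.644% of the listed reads in AB (30987 reads) and 0.341% in HB (18667 reads), and by the listed sequences 0.229% and 0.169%, so the direction was the same and the gap was larger with the variants. The seed of the muscle miRNAs miR-1-3p and miR-206-3p took 0.668% in AB and 0.930% in HB by the listed sequences, and 0.431% and 0.575% with the variants. This came from miR-1-3p alone, since miR-206-3p had 2031 reads in AB and 1711 in HB, a log2 ratio of -0.24, or -0.28 with the variants. These are shares of 1 library each, with no test.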
